A study of Mus musculus with 4 samples.

Results

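The sites described here are peaks of the transcription factor HNF4A that were listed in colonic epithelium of mice given dextran sulfate sodium (DSS) and not in that of control mice. Members were chosen by the positions in the 2 HNF4A peak lists: a peak of the DSS list was a member when it shared no base with any peak of the control list. Peaks on the mitochondrial chromosome were left out. Of 10678 DSS peaks, 1888 (17.7%) met this rule, beside 17880 control peaks. The mice were adults of 2 to 4 months. One group was given 3% DSS over 6 days and the other drank water without it, after which the colonic epithelium was collected by scraping. HNF4A and the histone mark H3K27ac were each profiled by ChIP-seq in both treatments, with 1 library per group and 4 groups in all. The sources used here do not state strain or sex, nor how many animals went into a library. Genotype is not stated either, apart from an unexplained code WT in the names of the control HNF4A list and the control H3K27ac columns. Peak lists hold no expression values, so the labelled cell type could not be checked against marker genes.

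The nuclear receptor HNF4A sits on DNA as a dimer, at pairs of short repeats, and drives genes of differentiated intestinal epithelium, among them genes of lipid transport and of the brush border. DSS injures the lining of the colon and causes colitis. H3K27ac, the acetylation of histone H3 at lysine 27, marks active enhancers and promoters. Peak positions are in build mm9, and neither a genome nor a gene annotation of that build was used here, so sites are given by coordinates, without sequences or genes. Absence from the control list means that no peak passed the authors' threshold there. It does not show that HNF4A was absent, and with 1 library per group no difference between the treatments can be tested against the spread between animals. All intervals given are 95% intervals and cover counting error only.

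The authors do not say what their peak score is, but the tags behind most peaks could be read from it. In both lists nearly all scores could be rebuilt as −log10 of a Poisson tail, the probability of reaching k tags at the peak summit when a background number of tags is expected. Here k is a whole number, and the background is either a genome-wide value or a larger local value that is a whole multiple of a fixed step. With a tolerance of 1e-05, 99.8% of the DSS scores and 99.9% of the water scores had at least 1 such solution. When the step was changed by 0.3%, these shares were 14.95% and 12.4%. Exactly 1 solution was found for 10070 of 10688 DSS scores and 16465 of 17886 water scores, and only these peaks are used below where tags are given. The number k would be 1 lower if the caller's tail leaves out k itself. The genome-wide background was 0.800 tags in the DSS library and 0.579 in the water library, a ratio of 1.38. In a caller of this type the background is the number of tags times the fragment length over the genome length, so this ratio is not depth alone, and how deeply either HNF4A library was sequenced is unknown. The fitted step of the local background differed too, at 0.00995 tags in the DSS library and 0.00605 in the water library. The DSS list was the shorter of the lists, and its background the higher. This higher background does not show that the DSS library was the deeper of the libraries.

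Most members stood on few tags. Over the 1779 members with 1 solution, the summit held a median of 11 tags (quartiles 10 and 13, range 7 to 54). The 8281 shared DSS peaks with 1 solution, which overlap a water peak, held a median of 15 (quartiles 12 and 21, range 7 to 183). Both the score and the tags come from the library that defined the members, so these values describe the selection and were not tested. A further 106 members had several solutions and 3 had none.

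**Figure D1:**
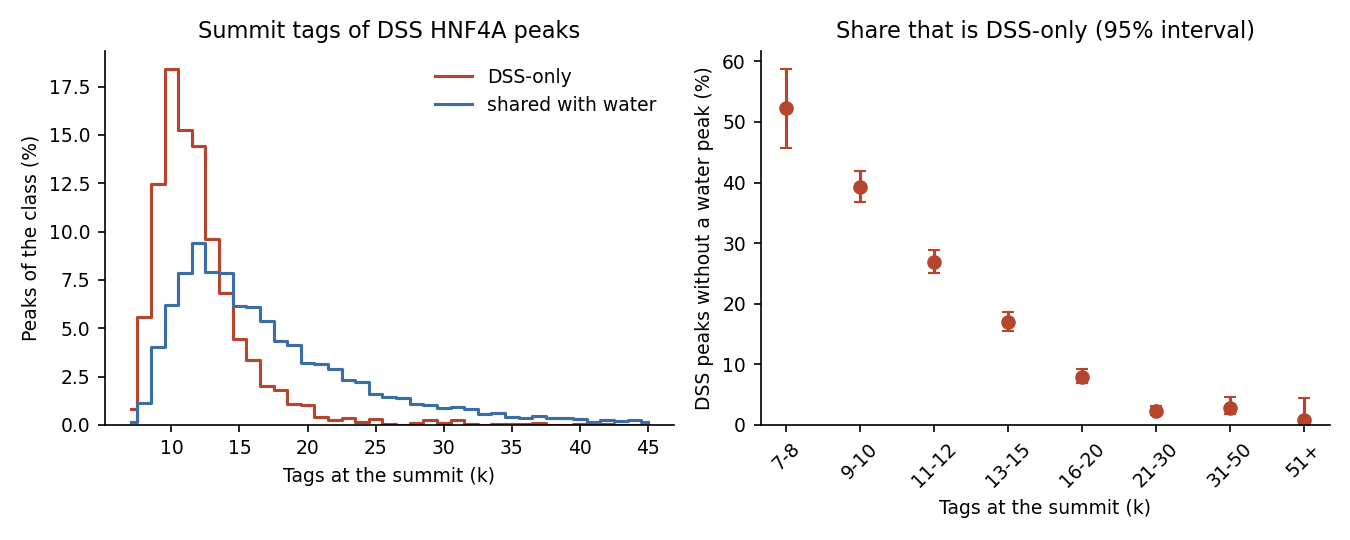
Left, share of the peaks of each class (%) by the number of tags at the summit, for DSS-only and shared peaks of the DSS list up to 45 tags. Right, share of DSS peaks that have no water peak (%) in bins of summit tags, with 95% Wilson intervals; it goes from 52.3% at 7 to 8 tags to 2.24% at 21 to 30 tags.

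The plot of summit tags shows how the share of DSS-only peaks went down with the tag number. It was 52.3% of 218 peaks with 7 or 8 tags (interval 45.7 to 58.8) and 39.3% of 1400 peaks with 9 or 10 tags (36.8 to 41.9). At 13 to 15 tags it was 16.9% (15.4 to 18.6), and at 16 to 20 tags 7.93% (6.85 to 9.17). Above 20 tags the share no longer fell in order, with 2.24% at 21 to 30 tags, 2.83% at 31 to 50 tags and 1 of 126 peaks above that. The strong members are therefore few: 51 had more than 20 tags, and 371 of the 1888 ranked in the upper part of the DSS list, from rank 1 to 5344.

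Members also lay where the caller saw little signal in the surroundings. The local background at members was 1.13 times the genome-wide value at the median (quartiles 1 and 1.38), against 1.46 times at shared peaks (1.21 and 1.79). At the genome-wide floor, 477 of 1062 DSS peaks were DSS-only (44.9%, interval 41.9 to 47.9), and between 2 and 3 times that floor 60 of 1194 were (5.03%, 3.92 to 6.41). Peaks of like tag number showed the same order between low and middle backgrounds. With 16 to 20 tags, 18.8% of 276 peaks with a local background up to 1.2 times the floor were DSS-only (14.7 to 23.9). Of the 1446 peaks with the same tags and a background between 1.2 and 2 times the floor, 6.36% were (5.22 to 7.74). With 21 to 30 tags the shares were 13.8% of 65 peaks (7.46 to 24.3) and 2.01% of 1045 (1.32 to 3.05). Above 2 times the floor the share was not lower again at every tag number: with 13 to 15 tags it was 18.4% of 185 peaks (13.5 to 24.6), against 14.4% of 1431 peaks (12.7 to 16.3) between 1.2 and 2 times.

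The water tags at these sites are not in the lists, so the DSS values were only scaled by the ratio of the genome-wide backgrounds. The tags and the local background of each DSS peak were multiplied by 0.723, that ratio. This factor was not seen at shared peaks, whose median tags were 15 in the DSS list and 16 in the water list. Their median local background was 1.16 tags in both lists, so the scaled values are no measure of water tags. After scaling, 1719 of 1779 members (96.6%) kept a score of at least 4.20, the lowest score of the water list. Of shared DSS peaks, 98.7% did. A score of 7.21, the lower quartile of the water list, was reached by 572 members (32.2%) and by 66.6% of shared DSS peaks. This is arithmetic on the DSS library alone and takes no account of chance variation in the tags of a water library.

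The strongest member lay on chromosome 9 (120868948 to 120869547), at rank 104 of the DSS list with a score of 54.3. Its summit held 54 tags over a local background of 2.15, and the nearest water peak was 24.5 kb away. Next came a peak on chromosome 11 (75565179 to 75565778, rank 111) with 46 tags over a background of 1.30, 145.7 kb from any water peak. A peak on chromosome 14 (21523219 to 21523818, rank 117) held 47 tags over 1.49 and lay 28.7 kb from a water peak. These 3 sites are each more than 20-fold over their background, at 25.1-fold, 35.3-fold and 31.5-fold.

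Further sites of this strength lay on chromosomes 1 and 2. The peak on chromosome 1 (155313969 to 155314568, rank 127) had the highest ratio to background of the 10 strongest members, 38.7-fold with 42 tags. The peak on chromosome 2 (174171836 to 174172435, rank 139) had the lowest, 24.2-fold with 49 tags, and another member lay 0.612 kb from it. On chromosome 13 (31722782 to 31723381, rank 171) a member held 40 tags, 108.4 kb from a water peak and 301.7 kb from any shared peak.

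The remaining members of the 10 strongest held between 32 and 37 tags. One on chromosome 9 (51873555 to 51874154, rank 212) lay 194.7 kb from a water peak, and another on the same chromosome (77830583 to 77831182, rank 292) lay 30.3 kb from one. A peak on chromosome 2 (121263179 to 121263778, rank 330) was the closest of the 10 to the water list, at 12.2 kb. The most isolated of all members was a peak on chromosome 16 (73044429 to 73045028, rank 378), with 32 tags over a background of 1.03 and no water peak within 2723 kb. None of these 10 peaks lay on a listed H3K27ac region, and the nearest such region to any of them was 58.8 kb away, at the strongest member. No list of regions prone to artefact signal was used here.

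**Figure D2:**
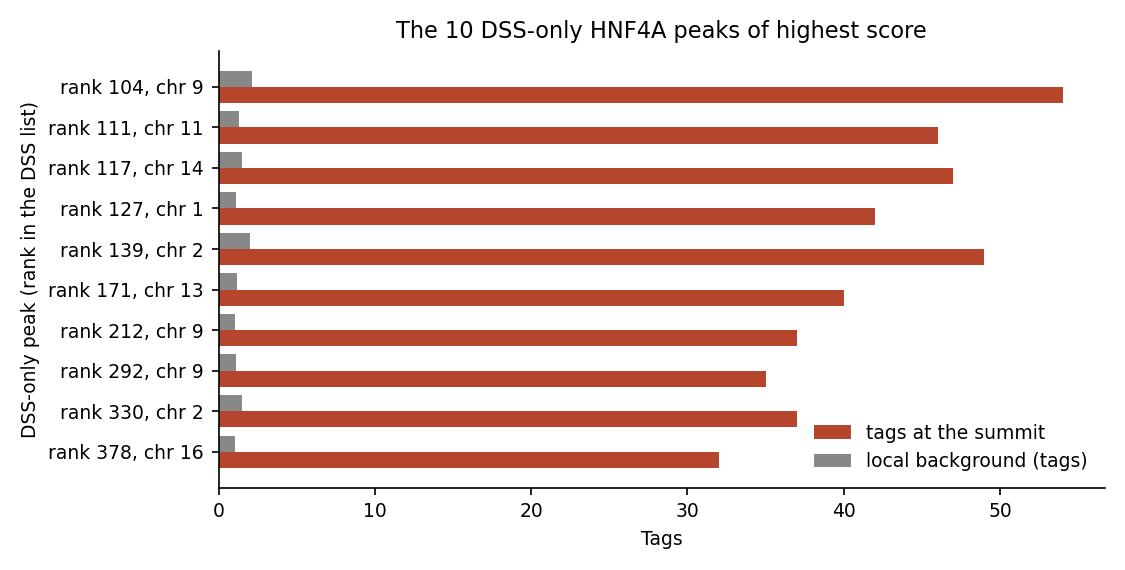
Tags at the summit and local background (tags) of the 10 DSS-only peaks of highest score, named by rank in the DSS list and chromosome. Summits held 32 to 54 tags, while no background exceeded 2.15 tags.

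Among the 50 strongest members, down to rank 1799, 40 lay more than 10 kb from a water peak and 15 more than 100 kb. Over all members these shares were 65.1% and 15.9%. The 50 strongest were spread over 18 chromosomes. None fell on a listed H3K27ac region, as did 36 of all 1888 members, or in a crowded window of 100 kb with 10 or more water peaks, as did 22 of all members, so that 0 of 50 is near the share over all members. Some of them formed pairs. On chromosome 11 the member of rank 111 was followed at 12.9 kb by another of rank 671 (75578636 to 75579235) with 31 tags, and a member of lower score completed a group over 28.1 kb. That group held neither a water peak nor a shared DSS peak. On chromosome 6 the members of rank 941 (98876991 to 98877590, 28 tags) and rank 1799 (98877539 to 98878138, 23 tags) overlapped by 52 bp, 77.6 kb or more from the water list, so the count of members holds this stretch more than once.

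The median member lay 20.3 kb from the nearest water peak. Within 0.6 kb, which is 1 peak width, lay 89 members (4.71%, interval 3.85 to 5.77), within 10 kb 659 (34.9%, 32.8 to 37.1), and beyond 100 kb 301 (15.9%). Closest to the rule's limit were 2 members that adjoined a water peak without sharing a base, on chromosome 2 (71703958 to 71704557, rank 7991, 12 tags) and chromosome 5 (100985906 to 100986505, rank 9129, 11 tags). Another, on chromosome 13 (44598810 to 44599409, rank 7417, 15 tags), lay 4 bp from one. Just outside the rule were shared DSS peaks that overlapped a water peak by 15 bp on chromosome 6 (83081941 to 83082540, 14 tags), by 24 bp on chromosome 16 (10453909 to 10454508, 15 tags) and by 31 bp on chromosome 15 (76100181 to 76100780, 11 tags). The members and shared peaks named here thus had like tag numbers, while other peaks near the limit were not compared.

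**Figure D3:**
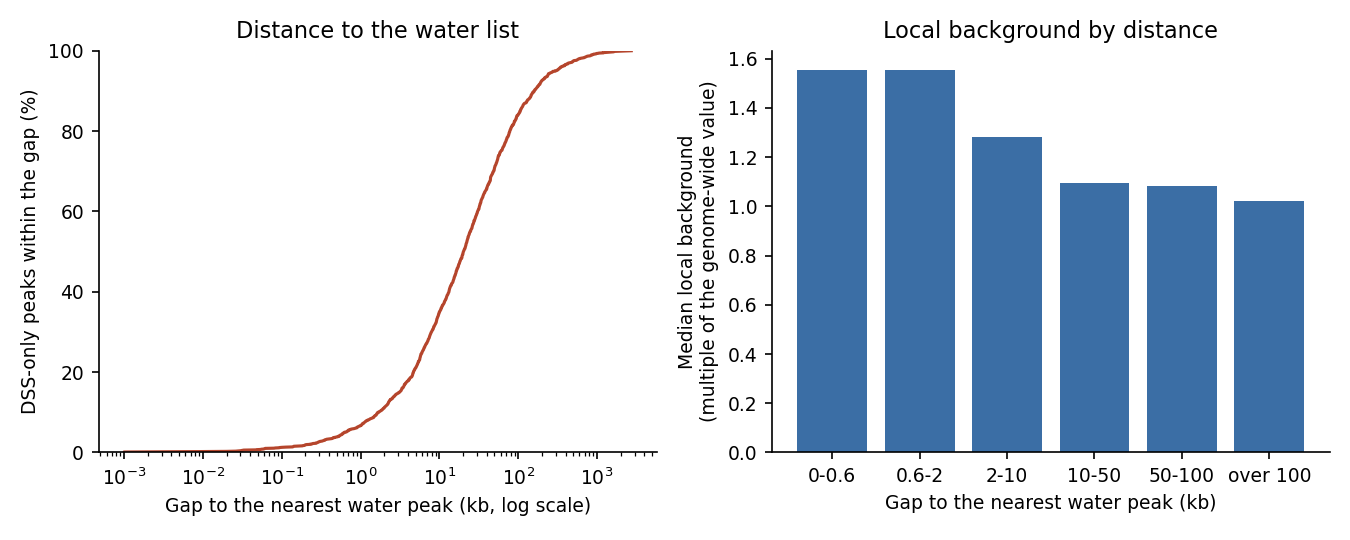
Left, cumulative share of the 1888 DSS-only peaks (%) by the gap to the nearest water peak in kb on a log scale, with adjoining peaks drawn at 1 bp. Right, median local background of DSS-only peaks as a multiple of the genome-wide value, by gap in kb; it goes from 1.55 below 2 kb to 1.02 above 100 kb.

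The local background went with this distance, while the median summit tags differed little. Members within 0.6 kb of a water peak had a median of 12 tags and a local background 1.55 times the genome-wide value. Those beyond 100 kb had a median of 11 tags and 1.02 times. The median score was 8.13 within 0.6 kb and 8.98 beyond 100 kb. Of the members with at least 13 tags, 253 of 587 lay within 10 kb of a water peak (43.1%, interval 39.2 to 47.1), against 34.9% of all members. Of the 51 members with more than 20 tags, 14 lay beyond 100 kb, beside 15.9% of all members. Where a water peak lay within 10 kb of a member, the nearest one was itself without a DSS peak in 336 of 659 cases (50.99%, interval 47.2 to 54.8), near the 47.1% of all water peaks that had none. Members were thus found beside shared and water-only peaks alike.

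Set against the shared peaks of the DSS list as a common reference, members were more remote than peaks found only in water. These classes are all defined by the peak lists that the rule used, so the distances describe the selection and were not tested. Nor were the classes matched for score or tags. The nearest shared peak was 44.7 kb away at the median (quartiles 13.6 and 131.7), against 32.8 kb for the 8417 peaks found only in water (9.89 and 97.2). Within 10 kb of a shared peak lay 20.1% of members and 25.2% of water-only peaks, a difference of -5.11 points (interval -7.09 to -3.03). More than 100 kb away were 30.8% of members and 24.4% of water-only peaks, a difference of 6.40 points (4.16 to 8.71).

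Members were found on every autosome and on the X chromosome, at shares from 13.9% of the DSS peaks of chromosome 17 (11.02 to 17.3) up to 29.4% of those of the X chromosome (22.9 to 36.8). The X chromosome held 47 members among 160 DSS peaks and exceeded the rest of the genome by 11.9 points (5.32 to 19.4). Chromosome 1, with 159 of 726 (21.9%, 19.0 to 25.1), exceeded the rest by 4.53 points (1.57 to 7.76), and chromosome 17 lay below it by 4.00 points (difference -4.00, interval -6.93 to -0.499). These 3 were singled out after the values of all 20 chromosomes were seen, and the intervals are not adjusted for that.

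**Figure D4:**
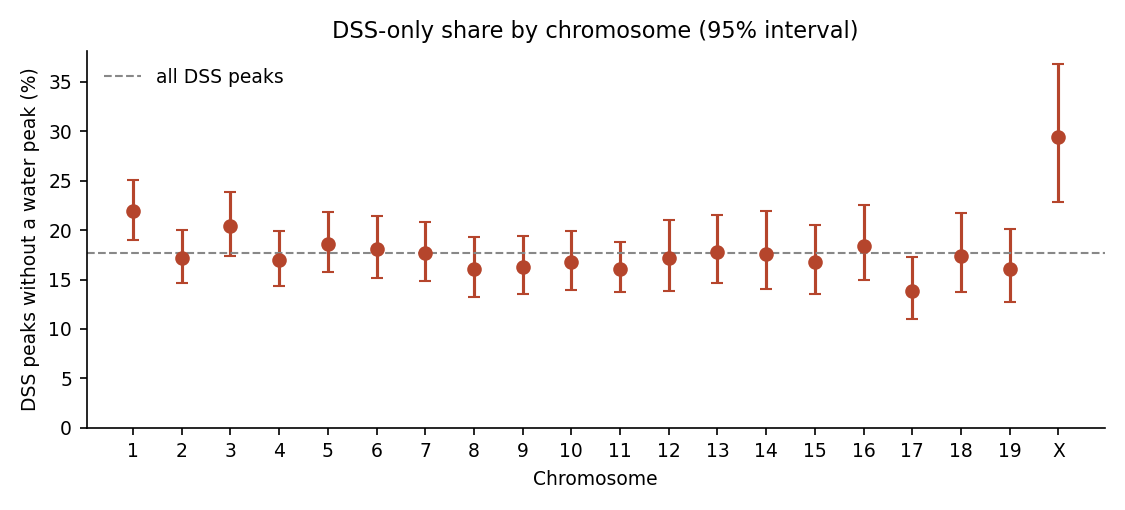
Share of the DSS peaks of each chromosome that have no water peak (%), with 95% Wilson intervals; the dashed line marks 17.7%, the share over all DSS peaks. The X chromosome lies highest at 29.4% and chromosome 17 lowest at 13.9%.

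On the X chromosome the DSS peaks held fewer tags (median 12, against 14 or 15 on every autosome) over a lower local background (1.18 times the genome-wide value, against 1.32 to 1.48). Their part in the higher share was not tested. In bins of summit tags, the X share was 3 of 5 peaks at 7 or 8 tags (interval 23.1% to 88.2%), beside 51.5% (44.6 to 58.4) on chromosomes other than 1 and X. At 9 or 10 tags it was 43.3% of 30 peaks (27.4 to 60.8) beside 39.1% (36.5 to 41.8). Of the X peaks, 18 of 45 with 11 or 12 tags were DSS-only (interval 27.02% to 54.5%), beside 26.01% (24.03 to 28.1). At 13 to 15 tags the X share was lower, 2 of 33 peaks (6.06%, 1.68 to 19.6) beside 16.8% (15.2 to 18.5). At 16 to 20 tags it was 6 of 20 peaks (interval 14.5% to 51.9%) beside 7.54% (6.44 to 8.81), and above 20 tags 3 of 21 peaks (14.3%, 4.98 to 34.6) beside 2.01% (1.48 to 2.72). On chromosome 1 the shares of these 6 bins, from low to high tags, were 58.8%, 40.2%, 35.4%, 21.6%, 10.07% and 4.64%, each above that of the other chromosomes, with overlapping intervals in every bin. The X chromosome took up like parts of both lists, 1.498% of DSS and 1.477% of water peaks, and its water peaks were also the least shared, with 54.5% lacking a DSS peak.

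Most members had no other member within 50 kb. No like count was made for other peaks or for random positions, so whether members are more or less grouped than those was not tested. Linked at gaps of up to 50 kb, 1481 members (78.4%) formed no group, and 164 pairs and 24 larger groups held the others. Overlaps with another member occurred for 33 peaks, and merging them left 1871 sites. The largest groups held 5 members each and differed in kind. One covered 88.5 kb of chromosome 10 (8610103 to 8698623), with 7 to 14 tags over backgrounds of 1.11 to 1.74 times the genome-wide value. It contained 1 water peak and no shared peak. The other covered 102 kb near the start of chromosome 11 (3048382 to 3150530), also with 1 water peak and no shared peak. Only 2 of its members had 1 solution, and one of these (3097911 to 3098510, rank 7622) had 46 tags over a local background 20.8 times the genome-wide value, only 2.76-fold over it. That was the highest local background of any member with 1 solution, and 13 such members in all exceeded 3 times the genome-wide value. The 100 kb window with the member of rank 7622 held 13 water peaks, although only 1 lay inside the group.

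H3K27ac came from other libraries and was not used to choose the members. For it the authors deposited 2 lists of 1000 regions each, enriched in water or in DSS, with the tags of both libraries. The list names give a distance of 2 kb, and no region lay closer than that to the reference point of the deposited distance, which is not named. Of the 1888 members, 21 overlapped a water-enriched and 16 a DSS-enriched region, 1 of them both, and 1852 overlapped neither. The share on water-enriched regions, 1.11% (interval 0.729 to 1.69), was lower than the 3.15% of shared DSS peaks (2.81 to 3.54) by 2.04 points (difference -2.04, interval -2.58 to -1.36). It was also lower than the 1.78% of water-only peaks (difference -0.67, interval -1.16 to -0.032). On DSS-enriched regions the share was 0.847% (0.522 to 1.37), against 1.30% of shared peaks (difference -0.449, interval -0.865 to 0.118) and 1.03% of water-only peaks (difference -0.186, interval -0.590 to 0.374). On both lists the share of members was thus lower than that of either other class. The intervals left out 0 on water-enriched regions, narrowly so against water-only peaks, and held 0 on DSS-enriched regions. Whether the 2 lists differ in this was not tested. The intervals treat peaks as independent, although some members overlap each other.

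Peaks within 10 kb of a region were compared with shared peaks in 3 bins of summit tags. The top bin, 16 tags or more, had no upper limit, and members reached 54 tags there but shared peaks 183. Tag numbers in that bin were thus not alike, and they were not matched within the lower bins either. Of 899 members with 11 to 15 tags, 271 had 11 and 79 had 15. Of 3251 such shared peaks, 651 had 11 and 511 had 15. With 16 tags or more, 7 of 216 members (3.24%, interval 1.58 to 6.54) lay within 10 kb of a water-enriched region, against 8.73% of 4076 shared peaks (7.91 to 9.64), a difference of -5.49 points (-7.39 to -2.09). With 7 to 10 tags the shares were 3.01% of 664 members and 3.77% of 954 shared peaks, a difference of -0.762 points (-2.52 to 1.14). With 11 to 15 tags they were 4.23% of 899 members and 6.40% of 3251 shared peaks, a difference of -2.17 points (-3.61 to -0.456). Near DSS-enriched regions the differences were -1.93 points (-3.65 to -0.127) with 7 to 10 tags, 0.164 points (-1.33 to 1.95) with 11 to 15 tags and -2.19 points (-4.30 to 1.44) with 16 tags or more. Members were thus rarer near water-enriched regions in the upper 2 bins, and near DSS-enriched regions in the lowest bin alone, with the difference between the bins not tested. Without bins, 3.97% of members and 5.48% of shared peaks lay within 10 kb of a DSS-enriched region, a difference of -1.51 points (-2.45 to -0.431).

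Water-enriched regions that held a member numbered 24, since some overlap each other, and 1 of them also held a water peak. Their nucleosome tags, headed nuc by the authors and read as tags on nucleosomes, had a log2 ratio, DSS over water, of -0.78 at the median (interval of the median -1.11 to -0.64), against -0.91 over the whole list. It was -0.81 (-0.86 to -0.77) in the 305 water-enriched regions with a shared DSS peak and no member, -0.93 (-1.01 to -0.87) in the 152 with a water-only peak and no DSS peak, and -0.99 (-1.05 to -0.96) in the 517 with no HNF4A peak. Tags are printed as deposited, while all ratios, log2 ratios and folds of H3K27ac are scaled to library totals fitted from the authors' score. These totals were 10329416 tags in DSS and 10143920 in water, so the ratios differ slightly from the quotient of the printed tags. More than 2-fold fewer tags in DSS were found in 7 of the 24, beside 40.1% of the list. The ratio's interval lay below 1 in all 24, beside 99.3% of the list. The authors chose both lists on these counts, so the direction is theirs and not a finding.

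Of the water-enriched regions with a member, the one of highest score lay on chromosome 12, under a member at rank 4448 with 15 tags (31618071 to 31618670). The region (31617851 to 31618316) went from 254 nucleosome tags in water to 98 in DSS, 2.64-fold more in water (interval 2.08 to 3.37). On chromosome 8 a region (60257016 to 60257656) was touched by a member over 27 bp (60256444 to 60257043, rank 7358, 13 tags), and its 662 tags in water against 437 in DSS were 1.54-fold higher in water (1.36 to 1.74). The largest fold of the first 5 was on chromosome 17 (85445321 to 85445836), with 192 and 61 tags, 3.21-fold higher in water (2.39 to 4.35). Its member (85445332 to 85445931, rank 7488) covered 505 bp of it and had no single solution for its tags. At the chromosome 12 and chromosome 17 sites, HNF4A was thus listed in DSS alone where H3K27ac tags were more than 2-fold lower in DSS.

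Of the other regions described, one on chromosome 6 (52214931 to 52215401) counted 153 tags for water against 52 for DSS, 3.00-fold more (2.17 to 4.19). It carried a member of 11 tags (52214963 to 52215562, rank 7791), 5.18 kb from a water peak. The fifth, again on chromosome 12 (74981256 to 74981876), had 140 against 75 tags, 1.90-fold more in water (1.43 to 2.55), and its member of 11 tags (74981310 to 74981909, rank 7654) covered 567 bp of it.

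**Figure D5:**
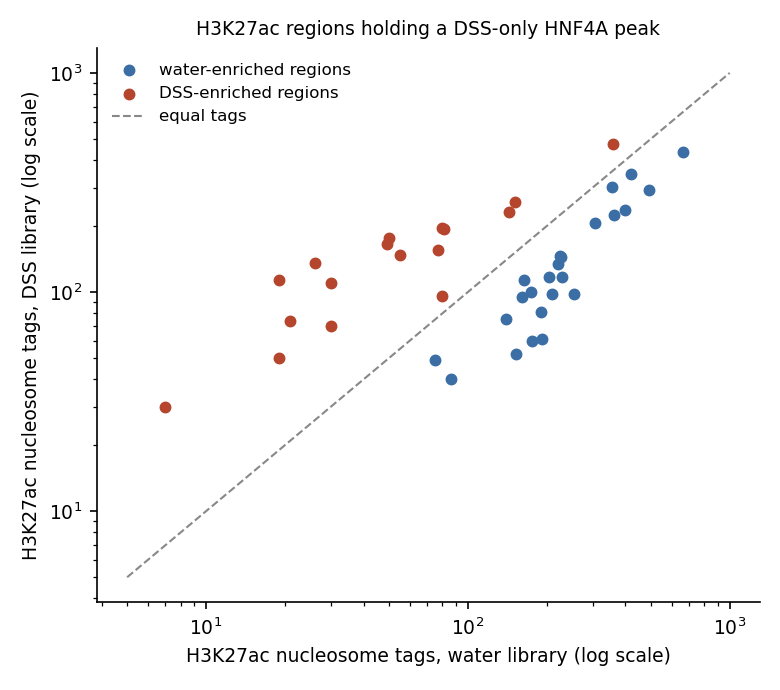
H3K27ac nucleosome tags of the water library (x) and the DSS library (y), both on log scales, in the 24 water-enriched and 17 DSS-enriched regions that hold a DSS-only HNF4A peak; the dashed line marks equal raw tags. All water-enriched points shown lie below the line and all DSS-enriched points above it; over the whole lists a few regions run the other way, with a highest log2 ratio of 0.26 in the water-enriched and a lowest of -0.33 in the DSS-enriched list.

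DSS-enriched regions that held a member numbered 17, and none of them held a water peak. Their median log2 ratio was 1.35 (interval of the median 0.98 to 1.78), against 1.41 over the list and 1.00 (0.85 to 1.09) in the 121 DSS-enriched regions with a shared DSS peak and no member. It was 1.14 (0.94 to 1.26) in the 87 with a water-only peak and no DSS peak, and 1.52 (1.46 to 1.60) in the 772 with no HNF4A peak. More than 2-fold more tags in DSS were found in 12 of the 17, beside 71.5% of the list, and the interval of the ratio lay above 1 in 16, beside 95.8%.

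Among DSS-enriched regions with a member, the highest score belonged to one on chromosome 17 (46299726 to 46300316), under a member at rank 8302 with 13 tags (46299541 to 46300140). Nucleosome tags there numbered 259 for DSS against 151 for water, a ratio of 1.68 (1.37 to 2.07). On chromosome 19 a region (29820646 to 29821121) with 74 and 21 tags had a ratio of 3.46 (2.11 to 5.92), and its member of 13 tags (29820602 to 29821201, rank 6043) covered it whole, 59.6 kb from any water peak. The highest ratio of the first 5 was on chromosome 9 (77364406 to 77365031), where 136 tags in DSS against 26 in water gave 5.14 (3.36 to 8.14). There the member held 14 tags (77364371 to 77364970, rank 6389).

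A region on chromosome 18 (73999206 to 73999731) was well acetylated in both libraries, at 474 tags for DSS against 360 for water, a ratio of 1.29 (1.13 to 1.49). Its member had 12 tags (73999272 to 73999871, rank 9520). The fifth, on chromosome 7 (127979171 to 127979666), held 155 and 77 tags, a ratio of 1.98 (1.49 to 2.63), and its member had 9 tags (127978758 to 127979357, rank 10042). The highest-ranked member on any DSS-enriched region stood at rank 3870 and the highest on a water-enriched region at rank 3593, so no member among the strongest 50 was on either list. One member, on chromosome 6 (134893679 to 134894278, rank 9841, 10 tags), overlapped a region of each list.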

How the data were processed

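The data were 4 libraries, HNF4A and H3K27ac ChIP-seq from water and DSS mice. The peak score is the authors' deposited value, 1 list of 600 bp peaks per library with MACS2 in the list names; CASAVA 1.8.2, MACS2 and build mm9 are per the submitters' processing notes, and what the codes in the list names mean is not given in the sources used here. H3K27ac tag counts were deposited by the authors as raw counts per region, marked MAPQ20 per the file headers, with a score of the difference and 1 further number per region that the authors head "id", read as a distance in bp to an unnamed reference point. The H3K27ac library totals, 10329416 tags in DSS and 10143920 in water, were recovered from that score by a least-squares fit. For each library the fit took the square root of the tags headed nuc less that of the tags headed lin. This was divided by the square root of the library total, and the score was taken as DSS minus water. That form was inferred here and is not stated in the sources used. The headers of the DSS H3K27ac columns also carry "r2" and "sorted", which those of the water columns lack, and what these mean is not stated.

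Overlap meant at least 1 bp, and gaps were counted edge to edge. Scores were rebuilt as Poisson tails with Python 3.11.15, scipy 1.17.1, numpy 2.4.6 and pandas 2.3.3, using k up to 400. Shares have Wilson, differences Newcombe, tag ratios exact conditional (Clopper-Pearson) and medians binomial intervals. The log2 ratios used a pseudocount of 0.5. HNF4A coordinates are 1-based, and H3K27ac coordinates are printed as deposited. The functions were tested on simulated data. The rebuilding recovered its parameters when simulated tag numbers were concentrated at low values, as in these lists, but a first simulation with evenly spread tag numbers failed, because the fit needs repeated scores. No p-value was computed, since each group had 1 library. Named were the 10 members of highest score, the 3 members and 3 shared peaks nearest to the rule's limit, members on the 5 highest-scoring H3K27ac regions per list and the largest group. Peaks and regions named beyond these were chosen after their values were seen. The rebuilding of the scores, the bins of tags and background, the scaling to water and the summary of the 50 strongest members were all added after the data were seen. The members and comparisons were chosen with earlier results of these data known.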

Additional observations from a re-analysis of the deposited data

How the results depend on the processing

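Of 27 alternative values, 18 stayed close to the reported one (a count within 1.5 times, a share or median within its interval), 9 moved and none changed sign. The number of DSS-only peaks depended most on the lists. It was 3269 when only as many of the best water peaks were kept as there were DSS peaks, 371 in the upper part of the DSS list by score, and 1229 when no water peak could lie within 10 kb. The share within 10 kb of a water peak was 31.5% in the upper part of the DSS list and 43.1% among members with at least 13 summit tags, an alternative chosen after seeing the data. The share on water-enriched H3K27ac regions was 1.85% when counted within 2 kb and 0.477% with the 500 regions of highest score. The share on DSS-enriched regions was 2.12% within 2 kb and 0.270% in the upper part of the DSS list, where 1 of 371 members lay on such a region. The cause of these shifts was not tested. Removal of crowded windows was also added after seeing the data and left 1866 members. No paired analysis was possible because each group had 1 library. Precision is limited by the low tag numbers of most members and by the single library per group.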

Other observations

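The mitochondrial chromosome, left out above, held 10 HNF4A peaks in the DSS list, of which 5 shared no base with a water peak, and 6 in the water list, of which 1 shared none with a DSS peak.

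Among members with 1 solution, those with the highest local background after the one on chromosome 11 lay near the start of chromosome 9 (3007145 to 3007744, rank 4026), with 29 tags over 6.21 times the genome-wide value, and on chromosome 1. The chromosome 9 site lies in a window with 42 water peaks. The chromosome 1 sites (85273461 to 85274060 and 85276784 to 85277383) held 21 and 20 tags over 4.90 and 4.66 times the genome-wide value and belong to a group of 4 members over 65.8 kb.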
